A study of Homo sapiens with 3 samples.

Results

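The genes described here are 30 enzymes and regulators of cholesterol and fatty acid synthesis, measured by RNA sequencing in a human breast cancer cell line. They were taken from the deposited count files by name: 32 names, among which MSMO1 and SC4MOL, and SC5D and SC5DL, are alternative names of 1 gene, matched 55 transcript records of 30 genes among 22825 genes in all. The choice by name uses no measured value as a criterion, but the names were chosen with earlier results of these data known. By role they are 17 sterol enzymes, 8 fatty acid enzymes and 5 regulators, and the set does not hold every enzyme of either route. The sterol enzymes were divided further into 6 that lead to farnesyl diphosphate (HMGCS1 to FDPS) and 11 that act after it (FDFT1 to DHCR7).

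Both routes start from cytosolic acetyl-CoA. The sterol route builds it into mevalonate, isoprenoid diphosphates, squalene, lanosterol and finally cholesterol, while the fatty acid route carboxylates it, chains it into palmitate, and then lengthens and desaturates the product. Transcription of most of these genes is driven by the sterol regulatory element binding proteins (SREBPs), membrane-bound factors that the escort protein SCAP carries to the Golgi for cleavage when membrane sterol is low and that INSIG proteins hold in the endoplasmic reticulum when it is high. SREBP-2, the product of SREBF2, is best known for acting on sterol genes, and SREBP-1, the product of SREBF1, for acting on fatty acid genes.

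The cells were MDA-MB-231, a mesenchymal-like, triple-negative breast cancer line that the labels give with the p53 missense change R280K. All samples analysed here belong to 1 group, cells that received a control siRNA (50 nM) in 2 rounds of transfection with 24 h between them and were collected 48 h later, and the 3 libraries are biological replicates by their labels. The study's siRNA against p53 is not analysed here. The values therefore give the levels in transfected control cells and how far replicate libraries differed, with no comparison of treatments. Libraries were made from total RNA with TruSeq kits and read as pairs of 100 bp.

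Replicates 1, 2 and 3 held 68670363, 84888346 and 54517311 counts over all genes. At this depth every synthesis gene was well counted, from 634 counts for HSD17B7 in replicate 3 (exact Poisson 95% interval 586 to 685, which covers counting error only) to 110479 for SCD in replicate 2. Markers of the labelled line were present, with VIM at 4543 ± 160 TPM (counts divided by transcript length and scaled to the same total in each library; mean ± SD over the 3 libraries here and below, n = 3) and all 6 of its listed markers detected. A gene was called detected at 1 CPM or more (counts scaled by library size alone) in each library. Of the hormone receptor and luminal markers 2 of 6 were detected, ERBB2 at 28.7 TPM and GATA3 at 3.996 TPM. ESR1 was the lowest of this list, at 0.0120 TPM. Of the hepatocyte, adipocyte and leukocyte or stroma markers 1 of 6, 0 of 6 and 2 of 7 were detected. In bulk RNA, fewer cells expressing a gene and less RNA per cell cannot be told apart.

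All 30 genes were detected, against 67.3% of the genes with a count. Their median level was 52.4 TPM, against 23.1 TPM for the 12610 detected genes. SQLE, SC5D and TM7SF2 lay below the median detected gene, at percentiles 39.8, 47.1 and 43.2, and SCD was highest at percentile 98.2, rank 225 of all genes by TPM. The median was 44.2 TPM for the sterol enzymes, 204 TPM for the fatty acid enzymes and 76.3 TPM for the regulators.

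**Figure D1:**
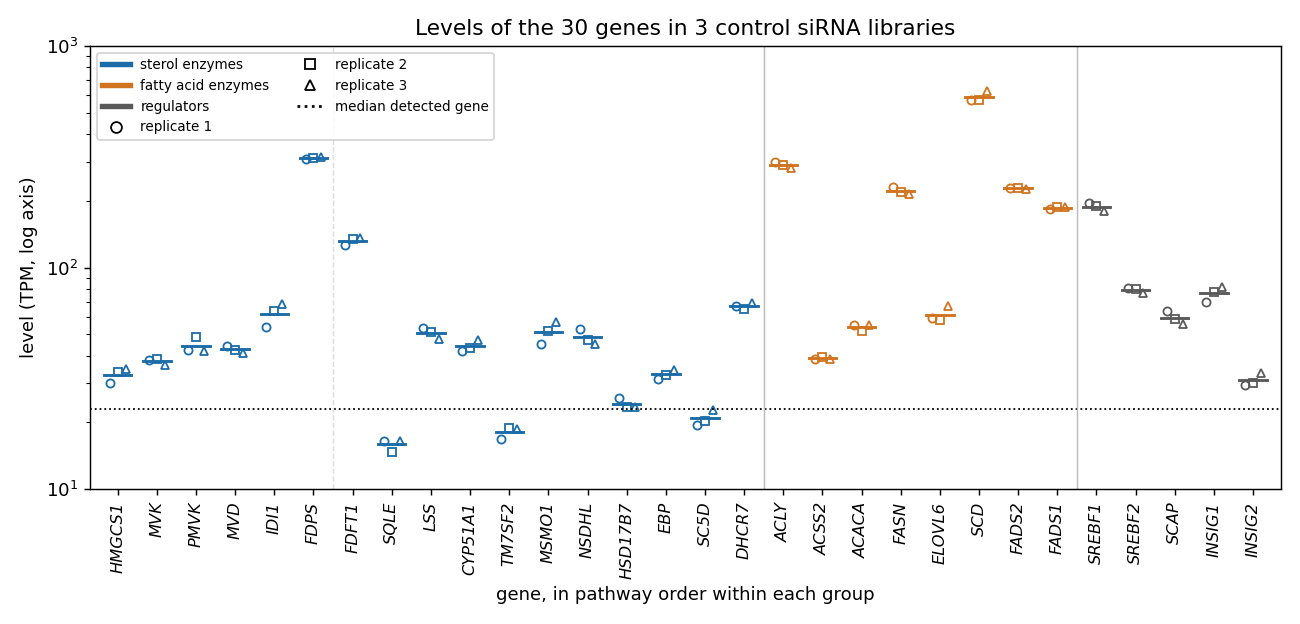
Level of each of the 30 genes (TPM, log axis) in the 3 control siRNA libraries, in pathway order within sterol enzymes, fatty acid enzymes and regulators; symbols are libraries, bars are means, and the dotted line is the median detected gene. SCD stands highest at 590.3 TPM and SQLE lowest at 15.9 TPM, and the symbols of a gene lie close together against this span. In order of level, 15 pairs of neighbouring genes have overlapping ranges.

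The early sterol enzymes lay within a narrow band up to the isomerase step, and the level stepped up at FDPS. HMGCS1, the synthase that makes HMG-CoA, had 30.1, 33.9 and 34.7 TPM in replicates 1, 2 and 3. MVK, which phosphorylates mevalonate, had 38.2, 38.8 and 36.1 TPM. PMVK, which adds the next phosphate, had 42.5, 48.6 and 42.2 TPM. Each of these genes stood above the one before it in every library, and their ranges did not overlap. This order depended on the transcript lengths. With the longest annotated transcript of each gene, MVK averaged 30.2 TPM, below HMGCS1 at 36.9 TPM, while PMVK averaged 49.9 TPM. MVD, the decarboxylase that yields isopentenyl diphosphate, averaged 42.7 ± 1.55 TPM, and the ratio of MVD to PMVK was above 1 in 1 of 3 libraries. IDI1, which isomerises isopentenyl diphosphate to its allylic form, had 53.6, 63.6 and 68.7 TPM and was lowest in replicate 1. With the longest transcripts IDI1 averaged 47.5 TPM, beside 48.0 TPM for MVD. FDPS, which joins these units into farnesyl diphosphate, the substrate shared by sterol synthesis, protein prenylation and the dolichol and ubiquinone routes, had 308, 314 and 315 TPM. FDPS was 5.09 ± 0.597 times IDI1, above it in every library, and alone made up 30.1% ± 0.296 of the summed TPM of the 17 sterol enzymes.

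After farnesyl diphosphate the levels stepped down over the next genes to the lowest of the set. FDFT1, squalene synthase, had 126, 135 and 136 TPM, which was 0.423 ± 0.0123 of FDPS. SQLE, the epoxidase that oxidises squalene and is a known control point of the route, had 16.5, 14.7 and 16.5 TPM, or 0.120 ± 0.0107 of FDFT1. FDPS, FDFT1 and SQLE were in this order in all 3 libraries without overlap, and FDPS was 19.7 ± 1.41 times SQLE. LSS, which cyclises the epoxide to lanosterol, averaged 50.5 ± 2.85 TPM, 3.19 ± 0.294 times SQLE. The low level of SQLE relative to both neighbours therefore held in each library.

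Among the enzymes that convert lanosterol to cholesterol, mean levels lay between 18.1 TPM for TM7SF2 and 67.1 TPM for DHCR7. CYP51A1, the lanosterol demethylase, averaged 44.2 ± 2.68 TPM. TM7SF2, a reductase that can act on its product, had 16.8, 18.8 and 18.6 TPM, 0.410 ± 0.0209 of CYP51A1. LBR, a nuclear envelope protein with the same reductase activity that was looked at after its values were seen, averaged 131 ± 4.65 TPM. MSMO1, the methylsterol oxidase, had 45.1, 51.7 and 56.8 TPM and was lowest in replicate 1. NSDHL, the dehydrogenase that acts with it, had 52.8, 47.2 and 45.2 TPM and was highest in replicate 1, so that NSDHL exceeded MSMO1 in 1 of 3 libraries. HSD17B7, the ketone reductase of the same complex, averaged 24.2 ± 1.33 TPM, 0.501 ± 0.0162 of NSDHL. EBP, the sterol isomerase, and SC5D, the desaturase after it, averaged 32.9 ± 1.5 and 20.8 ± 1.74 TPM. DHCR7, the reductase of the final step in one of the routes to cholesterol, averaged 67.1 ± 2.13 TPM, 3.23 ± 0.206 times SC5D.

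The summed level was almost evenly divided around farnesyl diphosphate, at 532 ± 13.0 TPM for the 6 early sterol enzymes and 506 ± 10.9 TPM for the 11 later ones. The median log2(TPM + 1) of the early genes minus that of the later ones was 0.05, 0.06 and -0.11 in replicates 1, 2 and 3, a mean of 0.00 ± 0.10 that changed sign between libraries. Its size depended on the summary, since the means of the members differed by 0.64. With records of a gene summed the difference was -0.42.

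The fatty acid enzymes stood at 2 levels. ACLY, ATP citrate lyase, which makes acetyl-CoA from citrate, had 299.8, 290.2 and 281 TPM and was 7.47 ± 0.261 times ACSS2, which makes it from acetate and averaged 38.9 ± 0.602 TPM. ACACA, the carboxylase that makes malonyl-CoA, had 54.9, 51.5 and 54.7 TPM. FASN, the multidomain synthase that builds palmitate from it, had 231, 219 and 214 TPM, 4.13 ± 0.191 times ACACA. ACLY and FASN both had their highest value in replicate 1 and their lowest in replicate 3.

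Past palmitate, ELOVL6, the elongase that makes stearate, averaged 61.2 ± 4.83 TPM. SCD, the desaturase that makes oleate and palmitoleate, had 569.6, 573 and 629 TPM and was highest in replicate 3. SCD was 9.65 ± 0.252 times ELOVL6, and with the longest annotated transcript of each gene, which for ELOVL6 is 6454 bases against 3090 bases for its record, the ratio was 20.2 ± 0.526. FADS2 and FADS1, the desaturases of polyunsaturated fatty acids, which lie next to each other on chromosome 11, averaged 227 ± 2.08 and 186 ± 2.0 TPM. FADS2 was above FADS1 in every library, by 1.22 ± 0.0159 times. The annotation has the 2 genes overlapping, so some reads may have been counted for both.

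The 5 genes SCD, FASN, ACLY, FADS1 and FADS2 made up 90.8% ± 0.206 of the summed TPM of the fatty acid enzymes, and SCD alone 35.3% ± 1.52. ACSS2, ACACA and ELOVL6 made up the rest, and these lay among the sterol enzymes in level.

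The branches differed in level in the same direction in every library. The median log2(TPM + 1) of the 17 sterol enzymes minus that of the 8 fatty acid enzymes was -2.24, -2.20 and -2.22 in replicates 1, 2 and 3, a mean of -2.22 ± 0.02. Summed TPM was 1038 ± 21.9 for the sterol enzymes and 1669.6 ± 24.0 for the fatty acid enzymes, a ratio of 0.621 ± 0.0124. The difference lay between -3.35 and -1.69 under the alternatives tried, the larger size coming from values not scaled by length and the smaller from the mean of the members. With 3 libraries an exact sign-flip permutation test cannot go below p = 0.25, and genes are not replicates, so no p is given. The branches were not separate gene by gene, since FDPS exceeded all fatty acid enzymes but SCD, and FDFT1 exceeded ACACA, ACSS2 and ELOVL6.

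**Figure D2:**
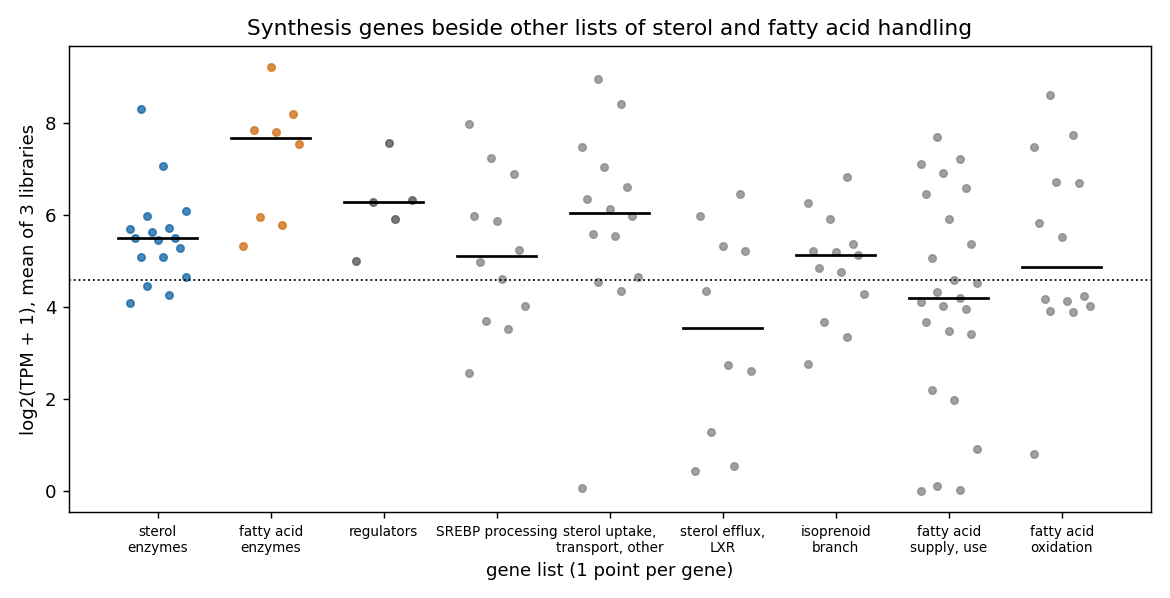
Mean level over the 3 libraries, as log2(TPM + 1), of each gene in the 3 groups of synthesis genes and in 6 lists of related function; bars are list medians and the dotted line is the median detected gene. The fatty acid enzymes have the highest median, 204 TPM, and the sterol enzymes, at 44.2 TPM, lie nearer the lists of SREBP processing and isoprenoid genes.

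The regulators were all expressed. SREBF1 had 195, 189 and 181 TPM and SREBF2 had 80.6, 79.7 and 76.6 TPM, so the gene of SREBP-1 was 2.38 ± 0.0321 times that of SREBP-2. Counts per gene do not separate the SREBP-1a and SREBP-1c transcripts. SCAP, the sterol-sensing escort, had 63.5, 58.4 and 55.9 TPM. INSIG1, which is itself an SREBP target, had 70.1, 77.2 and 81.8 TPM, and INSIG2, its less sterol-responsive relative, had 29.4, 30.3 and 33.2 TPM. INSIG1 was 2.46 ± 0.0857 times INSIG2, or 2.15 ± 0.0746 times with the longest transcript lengths. Relative to SCAP, INSIG1 was lowest in replicate 1, at 1.10 times, against 1.32 and 1.46 times in replicates 2 and 3. The transcripts differ in GC content, 42.9% for INSIG1 and 62.3% for SCAP. Deviations of log2 CPM from the mean of the libraries were also taken with the GC trend of all genes removed. They were -0.09, 0.05 and 0.04 for INSIG1 and 0.06, -0.03 and -0.02 for SCAP, so replicates 2 and 3 were then close.

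Ordered by mean level, SCD was followed by FDPS, ACLY, FADS2, FASN, SREBF1, FADS1, FDFT1, SREBF2, INSIG1, DHCR7, IDI1, ELOVL6, SCAP, ACACA, MSMO1, LSS, NSDHL, PMVK, CYP51A1, MVD, ACSS2, MVK, EBP, HMGCS1, INSIG2, HSD17B7, SC5D, TM7SF2 and SQLE. Of the 29 neighbouring pairs in this order, 15 had overlapping ranges over the 3 libraries. The middle of the order, from ACACA to MVD, was a run of such overlaps, so the order within it is not resolved. SCD, FDPS and ACLY at the top, and HSD17B7, SC5D, TM7SF2 and SQLE at the bottom, had ranges separate from both neighbours or, at the ends, from the only one. FADS2 overlapped FASN, and INSIG2 overlapped HMGCS1.

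Between replicate libraries the genes varied little. The ratio of the highest to the lowest CPM of the 3 libraries was between 1.03 for FDPS and 1.27 for IDI1, with a median of 1.10 over the 30 genes. Its median was 1.11 over the 14469 genes tested and 1.09 over those at or above the level of the lowest member. A deviance test of variation beyond counting noise (edgeR, dispersion set to 0, Benjamini-Hochberg adjusted over all genes tested, called under 0.05) called 24 of the 30, against 52.9% of all genes tested and 67% of those at or above the level of the lowest member. By group it called 12 of 17 sterol enzymes, 7 of 8 fatty acid enzymes and 5 of 5 regulators. MVD, FDPS, HSD17B7, EBP, DHCR7 and ACSS2 were not called. These p-values measure departure from counting noise between these libraries, whatever its source, and not the effect of any condition.

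The call counts depended on what was taken as noise. Genes with exactly 2 counts outnumbered those with 1 (712 against 485 in replicate 1), which is the pattern left where both mates of a pair are counted. With each pair counted once the test called 18 of the 30, against 28.5% of all genes and 41.2% of those at or above the level of the lowest member. It called 0 of 30, against 1.15%, with a coefficient of variation of 0.05 between libraries allowed. With a library left out it called 19 of the 30 without replicate 1, 19 without replicate 2 and 16 without replicate 3. In the same fits it called 5515, 5663 and 3571 of all genes, so the count was lowest without replicate 3 there too. No called gene of the 30 had a range wider than 1.27 times.

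The 2 genes of widest range, IDI1 and MSMO1, were sterol enzymes that were low in replicate 1. IDI1 had 51.9, 62.0 and 65.6 CPM in replicates 1, 2 and 3 (edgeR deviance test, adjusted p = 1.45e-23). MSMO1 had 43.0, 49.7 and 53.5 CPM (adjusted p = 1.63e-15 by the same edgeR test). HMGCS1 had 44.3, 50.4 and 50.5 CPM (adjusted p = 1.18e-07 by the same edgeR test). INSIG1, a regulator, had 77.3, 85.9 and 89.0 CPM (adjusted p = 4.34e-12 by the same edgeR test). In all 4 genes, which were grouped after their values were seen, replicate 1 lay below both other libraries. Replicate 1 was also lowest and replicate 3 highest for CYP51A1, SC5D, EBP, SCD and INSIG2, of which EBP was not called. The CPM of replicates 1, 2 and 3 were 56.6, 59.2 and 62.8 for CYP51A1, 20.1, 21.1 and 23.2 for SC5D, 23.5, 24.7 and 25.4 for EBP and 32.1, 33.2 and 35.7 for INSIG2. NSDHL went the other way, with 36.2, 32.6 and 30.6 CPM, as did SCAP, with 117, 109 and 102 CPM. MVD, LSS, HSD17B7, SREBF1, SREBF2, ACLY and FASN were likewise highest in replicate 1 and lowest in replicate 3. Of these, MVD and HSD17B7 were not called. LSS had 98.1, 94.9 and 86.6 CPM and SREBF1 349, 341 and 319 CPM. Without replicate 1 the adjusted p of the edgeR test was 0.0272 for IDI1 and 0.00914 for MSMO1, but 0.982 for HMGCS1, 0.112 for INSIG1 and 0.0794 for NSDHL, so the calls of these 3 rest on that library.

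Of the 17 sterol enzymes, 9 were lowest in replicate 1, 2 in replicate 2 and 6 in replicate 3, against 32.4%, 29.6% and 38% of all genes tested. They were highest in these libraries in 5, 5 and 7 cases, against 31.4%, 30.3% and 38.3% of all genes tested. The median deviation of log2 CPM from the mean of the libraries was -0.06, 0.02 and 0.03 in replicates 1, 2 and 3. The same medians were 0.00, 0.01 and -0.02 for the 8 fatty acid enzymes and 0.00 in each library over all genes tested. Among the fatty acid enzymes, SCD was the called gene with the most counts, at 1284, 1303 and 1399 CPM and highest in replicate 3, while FASN had 832, 797 and 761 CPM and ACLY 547, 534 and 506 CPM, both lowest there. SCD and FASN, the 2 genes of the branch with the most counts, lay on opposite sides of the other libraries in replicate 3 as counted, but with the GC trend removed both were highest there, with deviations of 0.06 for SCD and 0.03 for FASN.

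**Figure D3:**
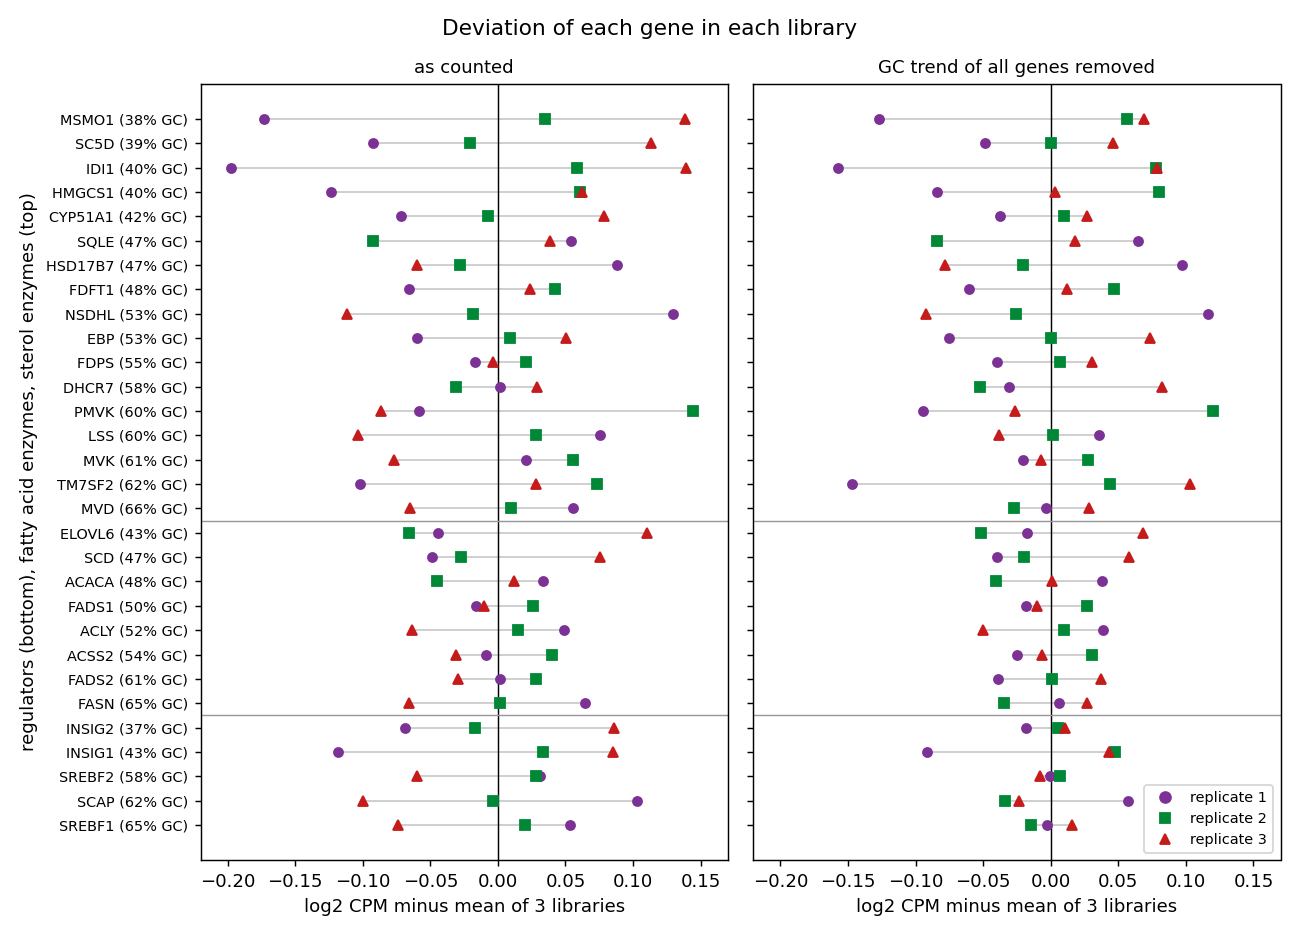
Deviation of each gene's log2 CPM from its mean over the 3 libraries, as counted (left) and after the trend of all genes with GC content was removed (right); genes are ordered by the GC content of their transcript within each group. As counted, IDI1 and MSMO1 have the widest spread, with replicate 1 lowest; after removal the spread of SREBF1 and SREBF2 is close to 0 and replicate 1 remains lowest for IDI1, MSMO1, HMGCS1 and INSIG1.

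Base composition moved with these differences. The GC content of the transcripts ran between 36.9% for INSIG2 and 65.6% for MVD. Spearman's rho between GC content and the deviation in a library was 0.60, 0.18 and -0.79 across the 30 genes in replicates 1, 2 and 3, and 0.42, 0.26 and -0.54 across 14347 tested genes with a value; these are descriptions across genes that share a library. With the trend of all genes removed, the edgeR deviance test called 20 of the 30, against 39.3% of all genes, and with each pair also counted once it called 13, against 14.5%. Of the 9141 tested genes at or above the level of the lowest member, these fits called 4438 and 1905. The 13 were IDI1, MSMO1, HMGCS1, PMVK, FDFT1, NSDHL, DHCR7, ACLY, ACACA, FASN, SCD, FADS2 and INSIG1. In that fit the adjusted p from edgeR was 1.08e-06 for IDI1, 0.00157 for MSMO1, 0.0240 for HMGCS1 and 0.00309 for INSIG1. SREBF1 and SREBF2, called as counted, had adjusted p of 0.549 and 0.927 in that edgeR fit. The median deviation of the sterol enzymes was then -0.04, 0.01 and 0.03, and that of the fatty acid enzymes -0.02, -0.01 and 0.01. Whether the remaining differences come from the cultures or from library preparation was not tested, and with 1 library per replicate these cannot be told apart.

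**Figure D4:**
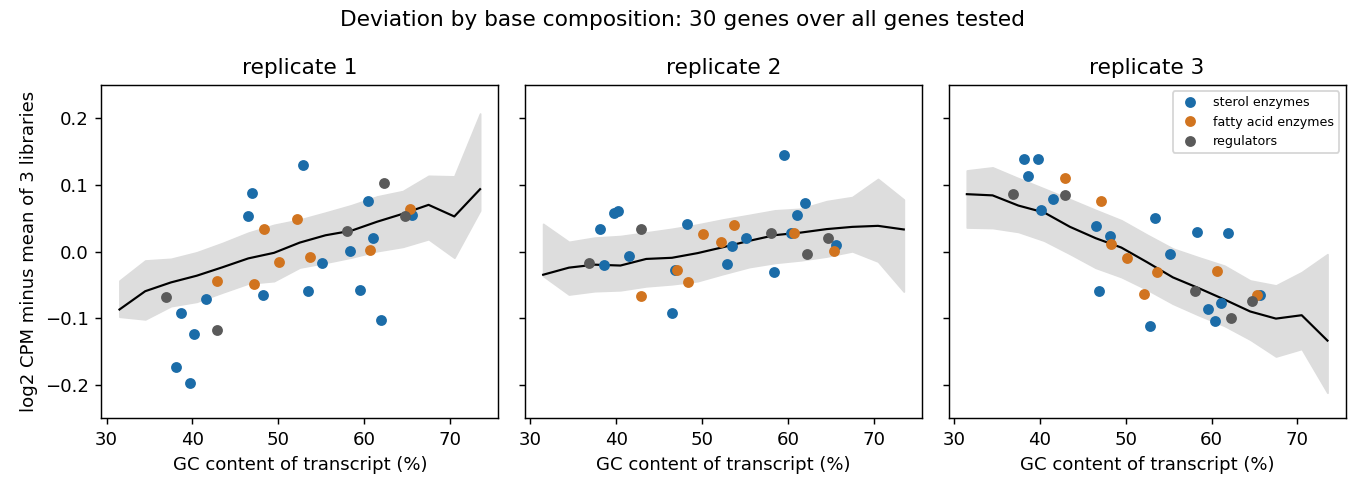
Deviation of log2 CPM from the mean of the 3 libraries against GC content of the transcript, 1 panel per library; points are the 30 genes, the line is the median and the band the interquartile range of all tested genes in bins of GC content. The line climbs with GC content in replicate 1 and falls in replicate 3, with rho of 0.42 and -0.54 over all tested genes.

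Genes that act around these routes were described from 6 further lists. Of 12 genes that carry, cleave or degrade the SREBPs and their partners, 12 were detected, with COPB1, a subunit of the COPI coat, highest at 250.1 ± 9.12 TPM and PAQR3, a Golgi protein known to tether SCAP, lowest at 4.92 ± 0.249 TPM. The edgeR deviance test called 4 of the 12, or 2 with each pair counted once, with ERLIN2 the widest of the called genes at 1.08 times between libraries. Over all genes tested the shares called were 52.9% and, with each pair counted once, 28.5%. The counts of every list below stand against these shares. Of 14 genes of sterol uptake, transport, esterification and neighbouring enzyme steps, 13 were detected and 10 of 13 tested were called, or 5 with each pair counted once. STARD4, which moves cholesterol between membranes, had the widest range of the called genes at 1.29 times, and SOAT2, the acyltransferase of liver and intestine, was lowest at 0.0537 ± 0.0318 TPM. Of 10 genes of sterol efflux and the liver X receptors, 7 were detected and 4 of 10 were called, or 2 with each pair counted once, with NR1H2, the gene of the widely expressed liver X receptor, highest at 86.3 ± 3.19 TPM. ABCG4, a sterol exporter best known from brain, was lowest at 0.349 ± 0.0644 TPM, and CYP27A1, a sterol hydroxylase, was the called gene of widest range at 1.26 times.

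All 13 genes that use farnesyl diphosphate and its products for prenylation, dolichol or ubiquinone were detected, and 6 were called, against 52.9% of all genes tested, or 3 with each pair counted once, against 28.5%. RABGGTB, a subunit of the transferase that prenylates Rab proteins, was highest at 113 ± 3.25 TPM, and PGGT1B, of a geranylgeranyl transferase, lowest at 5.73 ± 0.188 TPM; both lay below FDPS. RCE1, which trims prenylated proteins, had the widest range of the called genes at 1.18 times. Of 25 genes of fatty acid supply and use, 21 were detected and 14 of 22 tested were called, or 7 with each pair counted once. ELOVL1, an elongase of very long chains, was highest at 207 ± 1.86 TPM, while ELOVL4, known from retina and skin, had 0 counts in every library. MLXIPL, the gene of the carbohydrate response factor ChREBP, varied most of the called genes at 1.36 times. Of 14 genes of fatty acid oxidation, 13 were detected and 7 of 14 called, or 4 with each pair counted once. ACADVL, the mitochondrial dehydrogenase of very long chains, was highest at 389.5 ± 7.21 TPM, above all the fatty acid synthesis enzymes but SCD, and ACADL, its long-chain relative, was lowest at 0.759 ± 0.225 TPM and the called gene of widest range at 1.71 times. With each pair counted once, the edgeR adjusted p was 0.109 for ERLIN2, 0.128 for CYP27A1, 0.124 for MLXIPL and 0.157 for ACADL, which ended these calls. Median log2(TPM + 1) was 5.11 for SREBP processing, 6.05 for sterol uptake and transport, 3.56 for efflux, 5.08 for the isoprenoid list, 4.23 for fatty acid supply and use and 4.88 for oxidation.

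The promoters of 6 of these genes are shown because 4 of them (IDI1, MSMO1, HMGCS1 and INSIG1) are described above among the genes low in replicate 1, SCD was the highest gene and SREBF2 was the gene with a match to the classical sterol regulatory element. Each is the window in the RefSeq promoter table (GRCh38.p14) from 250 bases before to 50 bases after the gene's start, printed 5′ to 3′ on the gene's strand, and for genes with several starts the one with the most matches. Capitals mark matches, on either strand, to TCACNCCAC (the letters of the sterol regulatory element of a known SREBP target), CCAAT (the CCAAT box, bound by NF-Y), GGGCGG (the GC box, bound by Sp1 family factors) and CACGTG (an E-box); on the other strand CCAAT reads ATTGG and GGGCGG reads CCGCCC, and matches may overlap. The windows are chr10:1048837-1049136 (minus strand) for IDI1, chr4:165327419-165327718 (plus strand) for MSMO1, chr5:43313363-43313662 (minus strand) for HMGCS1, chr7:155297628-155297927 (plus strand) for INSIG1, chr10:100346983-100347282 (plus strand) for SCD and chr22:41832855-41833154 (plus strand) for SREBF2.
IDI1: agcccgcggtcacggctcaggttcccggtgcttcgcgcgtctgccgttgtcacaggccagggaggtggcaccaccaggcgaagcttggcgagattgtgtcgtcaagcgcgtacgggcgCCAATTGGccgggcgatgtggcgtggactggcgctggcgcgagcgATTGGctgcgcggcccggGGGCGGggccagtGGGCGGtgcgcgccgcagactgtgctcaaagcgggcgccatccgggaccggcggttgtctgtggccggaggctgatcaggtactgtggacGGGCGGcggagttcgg
MSMO1: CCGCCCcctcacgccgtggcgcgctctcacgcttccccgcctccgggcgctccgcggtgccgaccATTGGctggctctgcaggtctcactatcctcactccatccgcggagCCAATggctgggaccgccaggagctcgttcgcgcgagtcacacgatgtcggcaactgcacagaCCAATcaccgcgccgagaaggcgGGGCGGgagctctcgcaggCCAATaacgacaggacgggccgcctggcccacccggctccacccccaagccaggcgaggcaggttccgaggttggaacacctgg
HMGCS1: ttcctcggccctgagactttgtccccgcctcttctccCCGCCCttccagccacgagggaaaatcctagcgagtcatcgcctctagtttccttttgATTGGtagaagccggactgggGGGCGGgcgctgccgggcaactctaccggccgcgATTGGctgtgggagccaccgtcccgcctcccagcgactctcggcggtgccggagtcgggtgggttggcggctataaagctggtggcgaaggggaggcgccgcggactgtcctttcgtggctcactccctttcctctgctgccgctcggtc
INSIG1: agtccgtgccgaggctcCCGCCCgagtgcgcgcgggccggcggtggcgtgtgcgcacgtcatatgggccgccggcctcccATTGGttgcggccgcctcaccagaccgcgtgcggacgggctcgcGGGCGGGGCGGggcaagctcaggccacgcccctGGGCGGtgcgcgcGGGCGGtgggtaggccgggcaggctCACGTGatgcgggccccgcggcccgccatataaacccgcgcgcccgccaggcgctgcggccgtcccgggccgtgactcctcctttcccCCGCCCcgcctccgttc
SCD: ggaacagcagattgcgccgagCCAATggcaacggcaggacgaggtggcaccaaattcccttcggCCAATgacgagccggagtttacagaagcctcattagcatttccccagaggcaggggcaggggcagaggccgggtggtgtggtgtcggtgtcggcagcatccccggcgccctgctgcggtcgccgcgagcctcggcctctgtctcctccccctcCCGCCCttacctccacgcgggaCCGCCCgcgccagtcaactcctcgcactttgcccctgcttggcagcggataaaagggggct
SREBF2: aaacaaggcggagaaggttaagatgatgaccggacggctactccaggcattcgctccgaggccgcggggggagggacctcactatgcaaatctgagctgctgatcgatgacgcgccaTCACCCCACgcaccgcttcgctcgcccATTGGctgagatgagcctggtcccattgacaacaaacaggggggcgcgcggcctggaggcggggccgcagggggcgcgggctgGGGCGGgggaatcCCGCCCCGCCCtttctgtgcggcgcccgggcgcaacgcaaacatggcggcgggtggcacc

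The printed windows hold 3 CCAAT matches for IDI1, 4 for MSMO1, 2 for HMGCS1, 1 for INSIG1, 2 for SCD and 1 for SREBF2. Of the 30 genes, 27 had at least 1 window, 38 windows in all. CCAAT was found for 20 of the 27 (74.1%), against 43.8% of 10210 detected genes with a window and 39.7% of 27305 genes in the table. By group it was found for 13 of 15 sterol enzymes, 5 of 7 fatty acid enzymes and 2 of 5 regulators. MVK and NSDHL had the most, 5 matches each in 1 window. GGGCGG was found for 26 of the 27, all but NSDHL, which is 96.3% against 77.1% of detected genes. CACGTG was found for INSIG1, LSS, SC5D and SCAP, 14.8% against 12.4% of detected genes. TCACNCCAC was found for SREBF2 alone, 3.70% against 1.52% of detected genes. A match is a run of letters and not a binding site, and no match says only that these letters are not in this window.

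Most genes with several records had similar counts in each. Of the 30 genes, 15 had several records, and in 11 of these the lowest record held 90% or more of the largest. The exceptions were LSS, FDPS, MSMO1 and INSIG1, whose lowest records in replicate 1 held 73.5%, 85.4%, 88.5% and 80.2% of the largest. With the records of each gene summed instead, FDPS came to 776 TPM and ACACA to 138 TPM, with 5 records each, while genes with 1 record such as SCD came to 0.518 of their level. Near copies of members were counted beside them: IDI2 had 4.29 TPM, ACACB 3.56 TPM, SCD5 17.4 TPM, FADS3 32.7 TPM, EBPL 22.5 TPM, the pseudogene FDPSP2 2.55 TPM and the pseudogene HSD17B7P2 3.26 TPM. How reads with several hits were handled is not given in the sources used here. In the annotation 7 of the 30 genes overlap another gene with counts: MVK, IDI1, FDPS, ACACA, FADS1, FADS2 and SREBF1. The strand setting of the counting is not given either, so reads of such pairs cannot be told apart.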

How the data were processed

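RNA of 3 control siRNA libraries was measured by sequencing. The files the authors deposited hold whole-number read counts per RefSeq transcript record, not normalized. Reads were handled with FastQC, TopHat2 and Cufflinks on hg19, per the submitters' processing notes. Tool versions, the counter, its strand setting and its treatment of multi-hit reads are not given in the sources used here. Each file holds 42269 records. Accessions gave the gene for 6318 of 6937 unnamed records, and the 619 left out held 0.952%, 0.959% and 0.944% of the record totals. A gene's count was its record with the largest total, since the records of a gene mostly held similar counts; 4 of the 15 members with several records had one under 90% of the largest. TPM used transcript lengths and GC contents from GENCODE 29, with a length found for 98.9% of the genes that had a count.

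TMM factors (edgeR 4.0.16 under R 4.3.3) adjusted the library sizes, and genes were filtered with filterByExpr (minimum count 10). To test for variation between libraries, each gene was fitted in edgeR with an intercept alone and dispersion 0, and its deviance was set against a chi-square distribution, Benjamini-Hochberg adjusted over 14469 genes and called under 0.05. The script was tested on simulated data. edgeR's common coefficient of variation between the libraries was 0.0544. DESeq2 1.42.0 size factors, other lengths, summed records, pairs counted once, an allowed coefficient of variation, GC trends and each library left out served as alternatives, the GC trend in the variation test and the alternatives for neighbouring levels being added after the data were seen. Tables and plots used Python 3.11.15, numpy 2.4.6, pandas 2.3.3, scipy 1.17.1 and matplotlib 3.10.9. Promoter windows came from RefSeq (GRCh38.p14), matched by gene ID.

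Members and lists were chosen with earlier results of these data known. The text names every member and, of each context list, the gene of highest and of lowest mean TPM and the called gene of widest range, with near copies of members; some genes the rule names are not reported here.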

Additional observations from a re-analysis of the deposited data

How the results depend on the processing

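No paired analysis was possible because all 3 libraries belong to 1 group. All 30 genes were detected under each setting tried. The level of the sterol enzymes minus that of the fatty acid enzymes stayed negative, at -3.35 with CPM, -2.24 with a pseudocount of 0.1, -1.69 with the mean of members, -1.76 with records summed and -2.25 with the longest transcript, and between -2.23 and -2.21 with a library left out. The early minus late sterol difference was 0.26 with CPM, 0.64 with the mean and -0.42 with records summed, and between -0.03 and 0.06 with a library left out. Genes called as varying numbered 4117 with each pair counted once, 166 with a coefficient of variation of 0.05 allowed, 2100 with the GC trend removed and pairs counted once, and 3571 to 5663 with a library left out, the lowest without replicate 3, against 7653 as reported. For the 30 genes the counts were 0 with that coefficient allowed, 13 with the GC trend removed and pairs counted once, and 16 to 19 with a library left out. DESeq2 size factors called 25 of the 30 and 7660 of all genes. With the GC trend removed, the fatty acid median deviation (log2) was -0.0178 in replicate 1, -0.0095 in replicate 2 and, turning in sign, 0.0139 in replicate 3, where the mean of members gave -0.00031. The cause was not tested. Neighbouring levels overlapped in 12 to 16 pairs. Of the levels of the single genes, 27 of 30 moved by more than 1 SD with the longest transcript and 20 of 30 with records summed. These counts include genes moved only by the rescaling of the TPM total. SCD, whose length stayed at 5362 bases, came to 1.12 of its reported level with the longest transcript. LSS, NSDHL and INSIG1, whose lengths did change, moved by less than 1 SD. ELOVL6 came to 0.538 of its reported level with the longest transcript. Depth did not limit detection of any of the 30 genes, and TPM levels depend on the transcript chosen.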
